A study of Mus musculus with 12 samples.

Results

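Liver RNA levels are described here for 10 genes of drug metabolism: Cyp3a11, Cyp3a13, Cyp3a16, Cyp3a25, Cyp3a41a, Cyp3a44, Cyp3a59, Cyp1a1, Cyp1a2 and Por. They were taken by gene symbol from a table of 23849 symbols, and all 10 have a line in it. The livers came from male mice of C57BL/6J background, 8 weeks old, all fed a high-fat diet (HFD). Each mouse received either vehicle or Policaptil Gel Retard, the fiber-based product that the labels call Libramed, during the last 2 weeks of the diet. By the methods of the study, both were given by gavage once a day, shortly before lights off. The tissue was collected at ZT0 or at ZT12, where zeitgeber time (ZT) counts hours from lights on. This gave 4 groups of 3 mice: vehicle at ZT0, Libramed at ZT0, vehicle at ZT12 and Libramed at ZT12. Levels are in FPKM, fragments counted relative to transcript length and library size, so that levels of genes of different length can be set side by side.

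Cytochromes P450 are heme enzymes of the endoplasmic reticulum that oxidize drugs, steroids, bile acids and dietary compounds. The Cyp3a enzymes carry much of the oxidation of drugs and of testosterone in the mouse liver, and their genes are classic targets of the pregnane X receptor (PXR, encoded by Nr1i2) and of the constitutive androstane receptor (CAR, encoded by Nr1i3). The Cyp1a genes are targets of the aryl hydrocarbon receptor (AHR). Por encodes P450 oxidoreductase, the flavoprotein that passes electrons from NADPH to all microsomal P450 enzymes, and so serves every other gene described here.

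The Cyp3a genes lie together and resemble each other closely, which bears on how far short reads can tell them apart. In mm10 coordinates (GENCODE vM21), Cyp3a16, Cyp3a41a, Cyp3a44, Cyp3a11, Cyp3a25 and Cyp3a59 lie on chromosome 5, in a cluster that spans 768 kb and also holds Cyp3a57 and Cyp3a41b. Cyp3a13 lies apart from it, at chr5:137892932-137921619. Por is on the same chromosome, at chr5:135670033-135735326. Cyp1a2 (chr9:57676937-57683703) and Cyp1a1 (chr9:57687928-57703824) are neighbors in opposite orientation with 4225 bases between them. Each Cyp3a gene has 13 exons in the transcript used here, each Cyp1a gene 7 and Por 16. Between coding sequences, Cyp3a25 and Cyp3a59 were identical at 97.5% of aligned bases, and Cyp3a11 and Cyp3a44 at 94.9%. Cyp3a11 was slightly closer to Cyp3a41a, at 95.2%. Cyp3a41a and its copy Cyp3a41b were identical at 99.9%, while Cyp1a1 and Cyp1a2 shared 75.0%.

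Promoter sequences are shown for Cyp3a25 with Cyp3a59 and for Cyp3a11 with Cyp3a44. In each pair 1 gene was abundant in these livers and the other was not. The windows run from 250 bases before to 50 bases after the start of transcription (RefSeq, GRCm38.p6, 5′ to 3′ on the strand of the gene), and all 10 genes have one. Capitals mark the letters AGGTCA, a nuclear receptor half-site, AGTTCA, a half-site found in PXR elements, and TTANNTAA, the D-box core of the PAR bZIP factors, each on either strand. The windows are chr5:146009569-146009868 (minus strand) for Cyp3a25, chr5:146079008-146079307 (plus strand) for Cyp3a59, chr5:145879805-145880104 (minus strand) for Cyp3a11 and chr5:145805825-145806124 (minus strand) for Cyp3a44.
Cyp3a25: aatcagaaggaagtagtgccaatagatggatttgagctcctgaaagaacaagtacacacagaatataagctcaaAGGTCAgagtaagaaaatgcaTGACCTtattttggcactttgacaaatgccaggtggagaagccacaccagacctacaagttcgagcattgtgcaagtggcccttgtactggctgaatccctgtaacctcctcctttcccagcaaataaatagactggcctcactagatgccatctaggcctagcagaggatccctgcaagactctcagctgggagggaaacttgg
Cyp3a59: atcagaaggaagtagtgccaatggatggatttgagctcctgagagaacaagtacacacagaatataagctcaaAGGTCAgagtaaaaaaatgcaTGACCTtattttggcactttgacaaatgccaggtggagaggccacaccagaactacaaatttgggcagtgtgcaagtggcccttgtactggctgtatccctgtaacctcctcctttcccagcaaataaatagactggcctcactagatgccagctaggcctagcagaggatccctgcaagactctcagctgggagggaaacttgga
Cyp3a11: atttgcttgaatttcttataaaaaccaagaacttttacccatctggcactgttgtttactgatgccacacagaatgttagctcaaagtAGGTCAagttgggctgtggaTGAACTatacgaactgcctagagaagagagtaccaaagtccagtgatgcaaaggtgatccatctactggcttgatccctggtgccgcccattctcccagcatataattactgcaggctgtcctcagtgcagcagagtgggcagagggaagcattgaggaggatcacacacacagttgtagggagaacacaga
Cyp3a44: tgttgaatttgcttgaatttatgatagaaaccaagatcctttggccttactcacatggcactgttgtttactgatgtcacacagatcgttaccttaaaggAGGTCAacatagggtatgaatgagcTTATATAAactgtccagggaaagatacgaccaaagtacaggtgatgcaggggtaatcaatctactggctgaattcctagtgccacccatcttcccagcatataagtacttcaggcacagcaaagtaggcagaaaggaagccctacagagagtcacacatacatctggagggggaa
The windows of Cyp3a25 and Cyp3a59 were identical at 288 of 299 aligned bases (96.3%), and both hold AGGTCA followed by its reverse complement. The first of these begins at -176 from the start in Cyp3a25 and at -177 in Cyp3a59. Cyp3a11 and Cyp3a44 were identical at 79.6% of aligned promoter bases, less than each of them with Cyp3a16 (82.9% and 95.9%). Both hold 1 AGGTCA, but the AGTTCA match of Cyp3a11 at -142 is not in the Cyp3a44 window, where a TTANNTAA match stands at -125. Of all 32851 promoter windows in the RefSeq table, 16.3% hold AGGTCA, 14.0% AGTTCA and 6.00% TTANNTAA. The Cyp3a16 and Cyp3a41a windows also hold TTANNTAA. AGTTCA is also in the window of Cyp3a41a, at -130, so that it does not separate abundant from near-zero members. No searched letters were found in the windows of Cyp3a13 and Cyp1a2. No 2 marked stretches overlap in the printed windows. A match is only a stretch of letters and was not tied to binding here.

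Of the 10 genes, 6 averaged 1 FPKM or more in the 12 mice and entered the tests: Cyp1a2, Por, Cyp3a25, Cyp3a11, Cyp3a13 and Cyp3a59. Their mean levels over the 12 mice were 347.9 FPKM for Cyp1a2, 192.0 for Por, 158.8 for Cyp3a25, 91.8 for Cyp3a11, 54.2 for Cyp3a13 and 3.99 for Cyp3a59. Cyp1a2 was the highest of them in each group mean, and the order below it depended on the time of day. At ZT0 in vehicle, Cyp3a25 came next, and the ranges of Cyp3a11, Por and Cyp3a13 overlapped. At ZT12 Por stood above Cyp3a25 in every mouse of both treatments. Its range overlapped that of Cyp1a2 at ZT12 in vehicle and not in Libramed. The plot of levels by mouse shows these 6 genes.

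**Figure D1:**
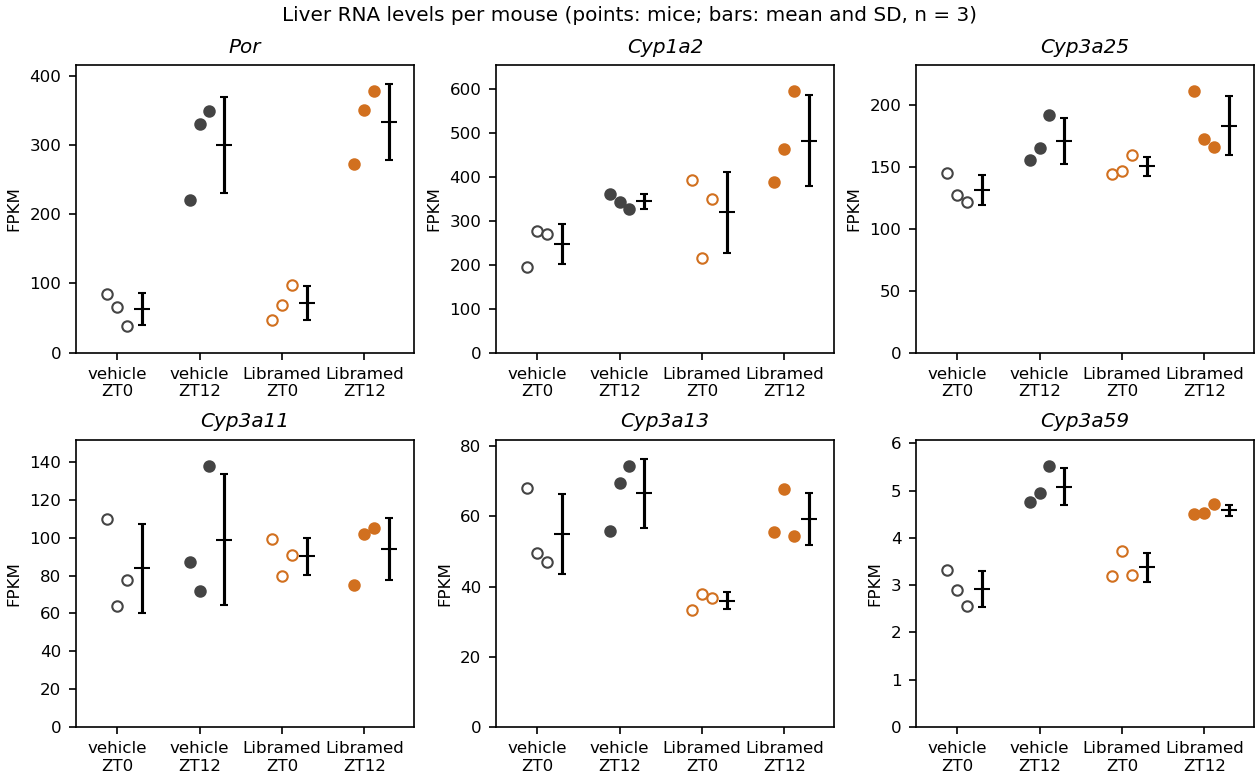
FPKM on the vertical axis of each panel, 1 panel per gene, with 4 groups on the horizontal axis. Open points are ZT0 mice, filled points ZT12 mice, and bars the mean and SD of 3 mice. The ZT12 points of Por (221 to 377 FPKM) lie above all its ZT0 points (38.2 to 97.5 FPKM), while the points of Cyp3a11 overlap between all groups.

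The other 4 genes were near or at 0. Cyp1a1, the inducible member of the Cyp1a pair, had a mean of 0.218 FPKM over the 12 mice. Its levels were 0.204, 0.152 and 0.260 FPKM in vehicle at ZT0 and 0.114, 0.216 and 0.0884 FPKM in Libramed at ZT0. At ZT12 they were 0.209, 0.198 and 0.330 FPKM in vehicle and 0.301, 0.196 and 0.347 FPKM in Libramed. The groups overlap in every comparison of time or treatment. Over both treatments the exact permutation p of the difference over time was 0.065 (two-sided, 400 arrangements within treatment). Within each mouse, the level of Cyp1a2 was 950 to 3940 times that of its neighbor Cyp1a1.

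Cyp3a44 and Cyp3a41a belong to the Cyp3a genes that are higher in female than in male mouse liver, and Cyp3a16 is known as a gene of fetal and newborn liver. Cyp3a44 was above 0 in 4 of 12 mice: 0.109 and 0.0192 FPKM in vehicle replicates 1 and 2 at ZT0, 0.0174 FPKM in Libramed replicate 2 at ZT0, and 0.0225 FPKM in Libramed replicate 1 at ZT12. Cyp3a41a was listed at 0 in all mice but Libramed replicate 3 at ZT0 (0.0429 FPKM), and Cyp3a16 was listed at 0 in all 12. No fold is given for these genes. A 0 in this table is not proof of absence, because Alb, the most abundant liver transcript, is also listed at 0 in every mouse. Of the transcript of Cyp3a41a, 90.8% of all windows of 100 bases also occur in another gene, 88.4% in Cyp3a41b alone, which was itself listed at 0 in all mice. The methods of the study state that reads with more than 1 best match were discarded, but they name another aligner than the labels do, and whether this held for the deposited table is not known. The value of Cyp3a41a is uncertain either way. The remaining related genes, Cyp3a57 and Cyp1b1, stayed below the minimum for testing as well.

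**Figure D2:**
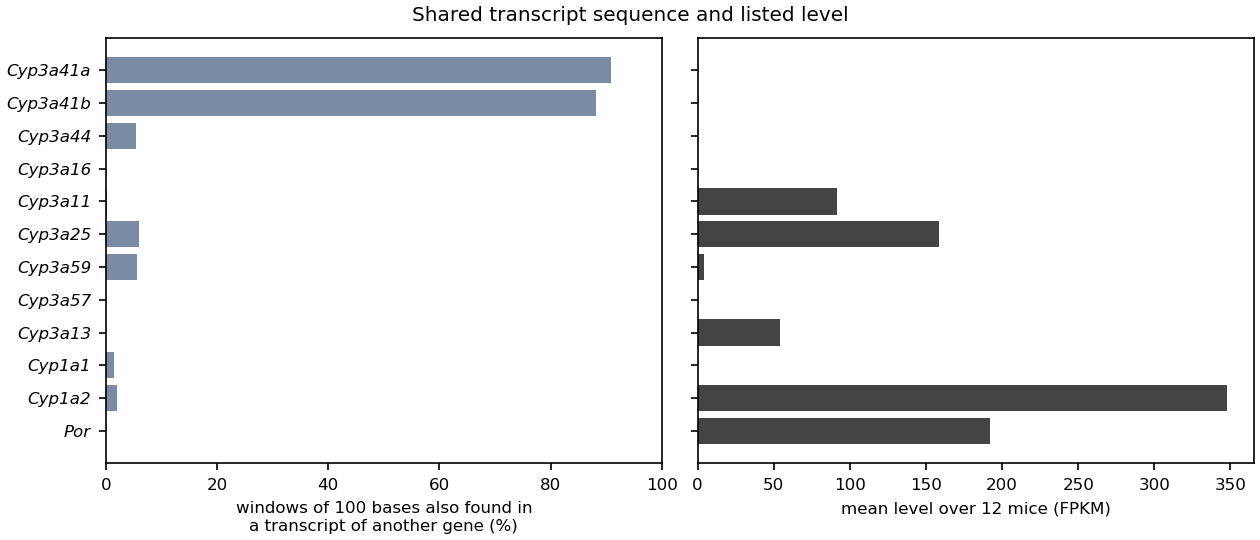
Left, the percentage of 100-base windows of each transcript that also occur in a transcript of another gene. Right, the mean FPKM over 12 mice. Cyp3a41a and Cyp3a41b share 90.8% and 88.2% of their windows and have no bar on the right, while Cyp3a25 and Cyp3a59 share 6.05% and 5.61% and differ widely in level.

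The first question of the design is how the genes differed between the beginning of the light phase and the beginning of the dark phase. Gavage came shortly before lights off, so time of day and time since gavage cannot be told apart here. Over both treatments, 5 of the 6 tested genes were higher at ZT12 with an adjusted p under 0.05 (limma, Benjamini-Hochberg over 9806 symbols): Por, Cyp3a59, Cyp3a13, Cyp3a25 and Cyp1a2. None was lower, and Cyp3a11 did not pass. Differences on the log2 scale are differences of log2(FPKM + 1), which understates those of low genes. Among all tested symbols 29.7% passed in either direction, and 15.9% passed with the higher level at ZT12. The median difference of the 6 genes was 0.49 on the log2 scale, beside 0.01 for all symbols tested. These comparisons of ZT12 with ZT0 in vehicle and in Libramed use different mice.

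Por, the electron donor of the P450 enzymes, showed the largest difference over time among the members. In vehicle mice it was at 85.2, 65.6 and 38.2 FPKM at ZT0 and at 221, 330.3 and 349 FPKM at ZT12. In Libramed mice it was at 47.6, 69.4 and 97.5 FPKM at ZT0 and at 272, 351 and 377 FPKM at ZT12. Every ZT12 mouse was above every ZT0 mouse, in both treatments. The group means differed 4.77-fold in vehicle, from 63.0 ± 23.6 to 300.1 ± 69.5 FPKM (SD, n = 3), and 4.66-fold in Libramed, from 71.5 ± 25.0 to 333.5 ± 54.8 FPKM. The log2 difference was 2.28 in vehicle (SE 0.308, adjusted p = 0.00945) and 2.25 in Libramed (SE 0.254, adjusted p = 0.00368). The change over time in Libramed minus that in vehicle was -0.03 (95% interval -0.99 to 0.94).

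The promoter window of Por, at chr5:135688895-135689194 on the plus strand (RefSeq, GRCm38.p6), is shown because Por differed most between the times of day. Capitals mark GCGTG, the core of AHR elements, on either strand.
Por: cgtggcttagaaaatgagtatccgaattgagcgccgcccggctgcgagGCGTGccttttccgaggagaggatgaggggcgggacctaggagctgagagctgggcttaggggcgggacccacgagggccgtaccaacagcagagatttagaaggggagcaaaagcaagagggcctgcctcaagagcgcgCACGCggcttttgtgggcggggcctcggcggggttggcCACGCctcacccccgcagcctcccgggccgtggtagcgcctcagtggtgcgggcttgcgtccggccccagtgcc
GCGTG occurs 3 times in this window, at -202, -62 and -24 from the start, and in 32.4% of all promoter windows. Neither the E-box CACGTG of the clock activators (7.15% of all windows) nor TTANNTAA was found in it. The start used by RefSeq lies downstream of the first base of the GENCODE gene, so that this is 1 of the possible promoters of Por.

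Cyp3a59, a low-level neighbor of Cyp3a25, had the smallest adjusted p after Por over both treatments and in vehicle, while Cyp3a13 came between them in Libramed. It was at 3.31, 2.89 and 2.55 FPKM in vehicle at ZT0 and at 4.76, 4.96 and 5.53 FPKM at ZT12. With Libramed it was at 3.20, 3.72 and 3.20 FPKM at ZT0 and at 4.52, 4.52 and 4.71 FPKM at ZT12. Both treatments separate ZT12 from ZT0 without overlap. The means differed 1.74-fold in vehicle (log2 0.64, SE 0.104, adjusted p = 0.0149) and 1.36-fold in Libramed (log2 0.35, SE 0.0845, adjusted p = 0.0390). Leaving out vehicle replicate 3 at ZT0, replicate 2 at ZT12 or replicate 3 at ZT12 moved the adjusted p in vehicle to between 0.0603 and 0.0637, and leaving out any 1 of the 6 Libramed mice moved that in Libramed to between 0.0533 and 0.116. Over both treatments the adjusted p was 0.000416, and it stayed at or under 0.00161 without any single mouse.

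Cyp3a25, the gene whose transcript is shared in part with Cyp3a59, was at 145, 127 and 121 FPKM in vehicle at ZT0 and at 155, 165 and 192 FPKM at ZT12. In Libramed mice the levels were 144, 147 and 159 FPKM at ZT0 and 211, 173 and 166 FPKM at ZT12. The groups did not overlap in either treatment, though the highest ZT0 and the lowest ZT12 mouse were close (145 and 155 FPKM in vehicle, 159 and 166 FPKM in Libramed). The means differed 1.30-fold in vehicle (adjusted p = 0.0841) and 1.22-fold in Libramed (adjusted p = 0.144). Over both treatments the difference passed, at 0.33 on the log2 scale (95% interval 0.16 to 0.50, adjusted p = 0.00796). Cyp3a59 stood at 2.10% to 2.29% of the Cyp3a25 level in vehicle at ZT0 and at 2.88% to 3.07% at ZT12. In Libramed the same ratio was 2.01% to 2.54% at ZT0 and 2.14% to 2.84% at ZT12. How reads from the shared windows were treated in this table is not settled by the sources, and their part in the low level of Cyp3a59 was not tested.

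Cyp3a13, the member outside the cluster, was at 68.1, 49.6 and 47.1 FPKM in vehicle at ZT0 and at 55.7, 69.5 and 74.5 FPKM at ZT12, with overlap. With Libramed it was at 33.3, 37.8 and 36.8 FPKM at ZT0 and at 55.6, 67.8 and 54.4 FPKM at ZT12, with no overlap. The means differed 1.21-fold in vehicle (log2 0.28, adjusted p = 0.334) and 1.65-fold in Libramed (log2 0.70, adjusted p = 0.00979). That the difference passed in only 1 treatment is no test of the treatments against each other. The interaction of time and treatment was 0.42 (95% interval -0.05 to 0.89, adjusted p = 0.764 in limma). The exact permutation p was 0.27, from treatment shuffled among mice within each time. Its null is no treatment difference at either time, so it does not test the interaction alone. Over both treatments Cyp3a13 was higher at ZT12 by 0.49 on the log2 scale (adjusted p = 0.00837).

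Cyp1a2, the constitutive Cyp1a enzyme of the liver, was at 194, 277 and 269 FPKM in vehicle at ZT0 and at 361, 343 and 327 FPKM at ZT12, with no overlap. In Libramed mice it was at 393, 216 and 348 FPKM at ZT0 and at 388, 463 and 594 FPKM at ZT12. Replicate 1 at ZT0 thus lay just above the lowest Libramed mouse at ZT12. The means differed 1.39-fold in vehicle (adjusted p = 0.0827) and 1.51-fold in Libramed (adjusted p = 0.151), and neither passed on its own. Over both treatments Cyp1a2 was higher at ZT12 by 0.56 on the log2 scale (95% interval 0.22 to 0.89, adjusted p = 0.0160).

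Cyp3a11, a major Cyp3a enzyme of adult mouse liver, did not pass the test over time. In these livers it made up 21.7% to 35.5% of the summed Cyp3a FPKM, below the 44.4% to 60.9% of Cyp3a25. It was at 109.8, 63.9 and 77.8 FPKM in vehicle at ZT0 and at 87.1, 71.7 and 138 FPKM at ZT12. In Libramed mice it was at 99.4, 80.1 and 91.2 FPKM at ZT0 and at 75.0, 102 and 105 FPKM at ZT12. All groups overlap. Over both treatments the log2 difference over time was 0.13, with a 95% interval of -0.23 to 0.50 (adjusted p = 0.594), so that a difference of the size seen in Cyp3a25 lies within the interval. Without vehicle replicate 3 at ZT12, the log2 difference in vehicle was -0.05 in place of 0.22.

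The 2 mice with the highest Cyp3a11, both given vehicle, were also those with the lowest Mup20, a gene of major urinary proteins that is higher in male liver. Vehicle replicate 1 at ZT0 had 1029 FPKM of Mup20 and vehicle replicate 3 at ZT12 had 809 FPKM, while the other 10 mice had 1803 to 3128 FPKM. The 9 genes of the list that are higher in female liver summed to 6.597 FPKM in the first of these mice, the highest sum at ZT0 but below the 6.93 to 11.1 FPKM of the Libramed mice at ZT12. They summed to 30.1 FPKM in the second, the highest of all 12. Acot3 made up most of both sums, at 3.709 and 19.19 FPKM. Vehicle replicate 2 at ZT12 had 15.81 FPKM of Acot3 but 71.7 FPKM of Cyp3a11, the lowest level of Cyp3a11 at ZT12. The 8 genes that are higher in male liver summed to 1944 to 5315 FPKM over the 12 mice, most of it Mup20 and Cyp2d9. Hsd3b5, Cyp7b1 and Slco1a1 of this list also had their lowest level in 1 of the 2 mice named first. Elovl3, Cyp4a12a, Cyp4a12b and Cyp2d9 had theirs in other mice. The part of these differences in the level of Cyp3a11 was not tested.

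Counted by treatment, 2 of the 6 tested genes passed in vehicle (Por and Cyp3a59), where 10.4% of all symbols did. In Libramed 3 passed (Por, Cyp3a13 and Cyp3a59), beside 12.4% of all symbols. The ZT0 and ZT12 mice did not overlap for 4 of 6 genes in vehicle (Por, Cyp3a25, Cyp3a59 and Cyp1a2) and for 4 of 6 in Libramed (Por, Cyp3a13, Cyp3a25 and Cyp3a59). Among all tested symbols the groups did not overlap for 33.2% in vehicle and 34.9% in Libramed. With 3 mice against 3, an exact permutation test cannot give a p below 0.1, so that the calls within a treatment rest on the variance that limma pools over genes. With 400 arrangements over both treatments the exact p was 0.005, the smallest possible, for Por, Cyp3a25 and Cyp3a59, 0.01 for Cyp3a13 and Cyp1a2, and 0.51 for Cyp3a11.

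**Figure D3:**
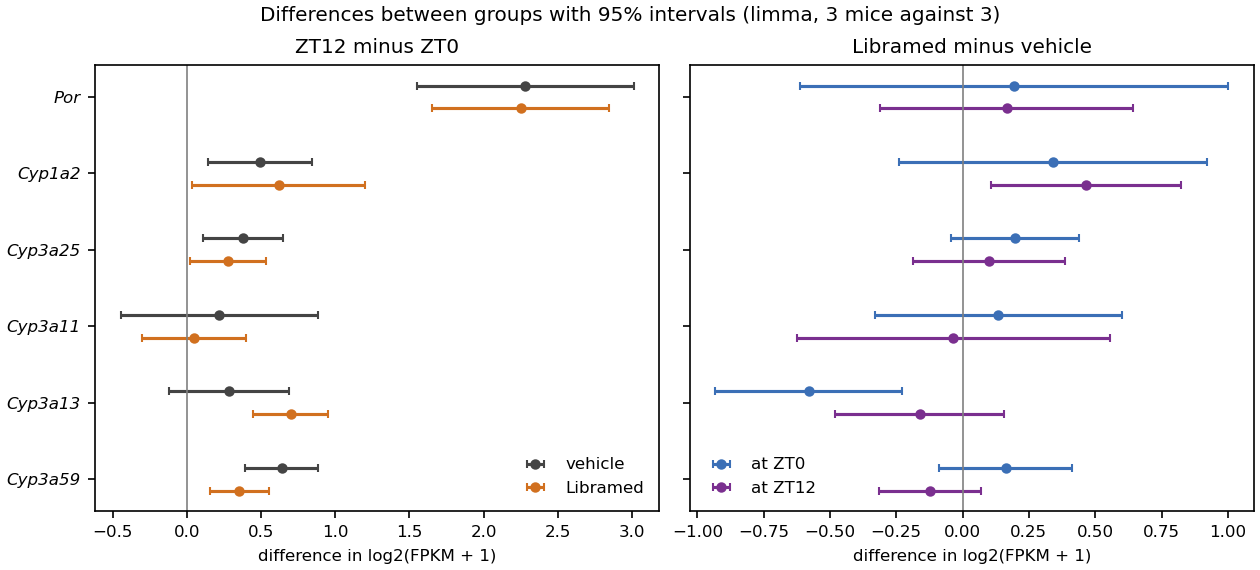
Differences in log2(FPKM + 1) for the 6 tested genes, with 95% intervals from limma, 3 mice against 3. Left, ZT12 minus ZT0 in vehicle and in Libramed. Right, Libramed minus vehicle at ZT0 and at ZT12. Por stands apart on the left at 2.28 and 2.25, and on the right the intervals that exclude 0 are those of Cyp3a13 at ZT0 (-0.93 to -0.23) and Cyp1a2 at ZT12 (0.11 to 0.82).

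The second question is whether Libramed and vehicle mice differed. None of the 6 genes passed an adjusted p under 0.05 in limma at ZT0, at ZT12 or over both times. At ZT0 and at ZT12 the share of all symbols that passed was 0% each, and over both times 0.0204% (2 symbols). At the unadjusted threshold of 0.05 that the study used, Cyp3a13 passed at ZT0, Cyp1a2 passed at ZT12, and these same 2 genes passed over both times, in opposite directions. The background at that threshold was 9.23% of all symbols at ZT0, 6.74% at ZT12 and 10.1% over both times. The Libramed and vehicle mice did not overlap for 1 of 6 genes at ZT0 (Cyp3a13) and for 2 of 6 at ZT12 (Cyp1a2 and Cyp3a59), where 15.1% and 13.1% of all symbols did not overlap.

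Cyp3a13 had its lowest levels in the Libramed mice at ZT0: all 3 of them, at 33.3 to 37.8 FPKM, were below the lowest vehicle mouse at 47.1 FPKM. The mean was 36.0 ± 2.39 FPKM with Libramed and 54.9 ± 11.5 FPKM with vehicle (SD, n = 3), a fold of 0.655. The log2 difference was -0.58 (SE 0.149, unadjusted p = 0.00578, adjusted p = 0.436 in limma). Without vehicle replicate 1 it was -0.42. At ZT12 the groups overlapped, with 54.4 to 67.8 FPKM in Libramed and 55.7 to 74.5 FPKM in vehicle (log2 -0.16, adjusted p = 0.789). Over both times the difference was -0.37 (adjusted p = 0.362 in limma), with an unadjusted exact permutation p of 0.01 from 400 arrangements. Cyp3a13 made up 18.9% to 20.9% of the summed Cyp3a FPKM in vehicle at ZT0 and 11.9% to 14.1% in Libramed at ZT0.

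Macrophage markers as a group sum were lower with Libramed at ZT0, as was Cyp3a13. The 8 macrophage genes of the list summed to 28.8 to 35.9 FPKM in vehicle and to 16.0 to 28.5 FPKM in Libramed, so the ranges nearly met. The order did not hold within Libramed, where the mouse with the lowest Cyp3a13 (replicate 1, 33.3 FPKM) had the highest sum. Adgre1 and Timd4 overlapped between the treatments. Of the 5 tested, 3 (Clec4f, Vsig4 and Cd68) had a lower level with Libramed at an unadjusted p under 0.05 in limma. At ZT0 9.23% of all symbols met this threshold in either direction, and none of the 3 passed after adjustment. The part of the macrophage genes in the difference of Cyp3a13 was not tested. In bulk tissue, fewer cells of a type and less RNA per cell cannot be told apart. Of 4 intestinal markers, of a tissue that also makes Cyp3a13, Vil1 and Lct reached no more than 0.0663 and 0.00783 FPKM and Cyp2c55 no more than 0.545 FPKM in any liver. Fabp2 was at 104.8 to 164.8 FPKM and made up nearly the whole sum of the list, 105.3 to 165.3 FPKM.

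Cyp1a2 had its highest levels in the Libramed mice at ZT12: these mice, at 388, 463 and 594 FPKM, were all above the vehicle mice, at 361, 343 and 327 FPKM. The means were 482 ± 104 and 344 ± 16.8 FPKM (SD, n = 3), a fold of 1.40. The log2 difference was 0.46 (SE 0.151, unadjusted p = 0.0183, adjusted p = 0.729 in limma), and it was 0.30 without Libramed replicate 3. At ZT0 the fold was 1.29, but replicate 2 of the Libramed mice (216 FPKM) lay among the vehicle mice. Over both times the difference was 0.40 (adjusted p = 0.420 in limma), with an unadjusted exact permutation p of 0.05. Cyp1a1 did not stand apart at ZT12, where its treated and vehicle mice overlapped.

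Por, Cyp3a25, Cyp3a11 and Cyp3a59 did not reach even an unadjusted p under 0.05 in limma at ZT0, at ZT12 or over both times. Over both times the log2 difference of Libramed minus vehicle was 0.18 for Por (95% interval -0.28 to 0.64), 0.15 for Cyp3a25 (-0.02 to 0.32), 0.05 for Cyp3a11 (-0.32 to 0.42) and 0.02 for Cyp3a59 (-0.14 to 0.18). These intervals bound the differences that 12 mice leave possible and do not show equality. At ZT12 the 3 Cyp3a59 levels with Libramed (4.52 to 4.71 FPKM) were just below the 3 with vehicle (4.76 to 5.53 FPKM), a log2 difference of -0.12 (adjusted p = 0.763). The summed FPKM of the Cyp3a members was 273 ± 46.2 in vehicle and 279.7 ± 11.2 in Libramed at ZT0, and 341 ± 59.6 and 341 ± 9.35 at ZT12 (SD, n = 3). Por stood at 0.228 and 0.255 of this sum at ZT0 and at 0.880 and 0.979 of it at ZT12, in vehicle and Libramed respectively.

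The interaction asks whether the difference over time was itself different between treatments. None of the 6 genes passed after adjustment in limma, where 0% of all symbols did, and 1 passed at an unadjusted p under 0.05 (Cyp3a59), beside 6.63% of all symbols. The difference over time of Cyp3a59 was smaller with Libramed by 0.28 on the log2 scale, with an unadjusted p of 0.0471 in limma (0.743 when adjusted). The exact permutation p was 0.025, but its null is no treatment difference at either time, so it does not test the interaction alone.

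Regulators and partners of these genes differed over the day as well. Of 12 transcription factors known to act on P450 genes, 11 were tested, and 9 were higher and none lower at ZT12 over both treatments with an adjusted p under 0.05, beside 15.9% of all symbols higher and 29.7% in either direction. Nr1i2, which encodes PXR, rose by 0.90 on the log2 scale over both treatments, from 21.4 to 44.0 FPKM in vehicle and from 30.4 to 53.3 FPKM in Libramed. Nr1i3, which encodes CAR, rose by 1.01, from 121 to 272 FPKM in vehicle and from 129 to 241 FPKM in Libramed. The 3 PAR bZIP factors of the circadian output, which bind D-boxes, rose by 2.25 (Dbp), 1.29 (Tef) and 0.77 (Hlf). Nr1h4, the bile acid receptor FXR, rose by 0.53, Arnt and Hnf4a by 0.31 each and Rxra by 0.23. Ahr, the receptor that partners with Arnt, was at -0.22 (adjusted p = 0.281), and Nr3c1, the glucocorticoid receptor, did not pass either.

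Of 7 genes of electron transfer and heme supply, 5 were higher at ZT12 over both treatments and 1 was lower, against the same 15.9% of all symbols higher and 29.7% in either direction. Alas1, the rate-limiting enzyme of heme synthesis, rose by 2.60 on the log2 scale, the largest difference of this list. Its levels went from 83.4 ± 25.1 to 422 ± 93.4 FPKM in vehicle and from 49.5 ± 27.5 to 389 ± 249 FPKM in Libramed (SD, n = 3). Cyb5a, the microsomal cytochrome b5 that can donate an electron to P450 enzymes, rose by 0.56, and its reductase Cyb5r3 by 0.48. Pgrmc1, a heme-binding partner of P450 enzymes, rose by 0.31 and Fech, the last enzyme of heme synthesis, by 0.19. Cyb5b, the outer mitochondrial cytochrome b5, fell by 0.41, and Hmox1 did not pass.

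Of 10 known target genes of PXR and CAR, 9 have a line of their own in the table and 5 were tested, of which 2 were higher at ZT12 over both treatments: Ces2a, a carboxylesterase (0.32), and Aldh1a1, a retinal dehydrogenase (0.28). Of 6 target genes of AHR, 2 were tested and 1 was higher: Nqo1, a quinone reductase, at 0.52. Among all tested symbols 15.9% were higher and 29.7% passed in either direction. In the treatment comparisons none of these lists held a gene with an adjusted p under 0.05 in limma. At an unadjusted p under 0.05, which 10.1% of all symbols met over both times, Nr1i2 (0.37, adjusted p = 0.355) and Ces2a (0.29, adjusted p = 0.425) were higher with Libramed over both times. At ZT12, where 6.74% of all symbols met it, 3 of the 5 tested targets of PXR and CAR did, 2 of them higher and 1 lower with Libramed. Ces2a differed by 0.41 (adjusted p = 0.700) and Gstm1, a glutathione transferase, by 0.24 (adjusted p = 0.729). Aldh1a1 differed by -0.31 (adjusted p = 0.729). At ZT0, where the share of all symbols was 9.23%, Nr1i2 and Dbp were higher with Libramed and Hmox1 was lower.

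**Figure D4:**
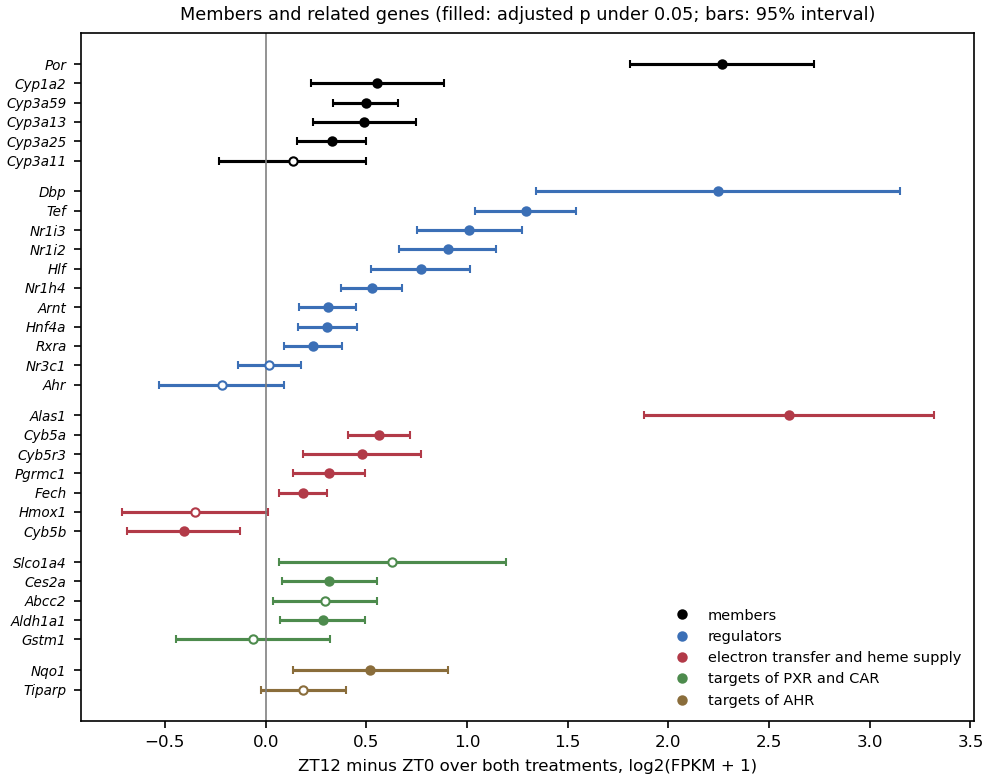
ZT12 minus ZT0 over both treatments in log2(FPKM + 1), with 95% intervals from limma on 12 mice, for the 6 tested members and the tested genes of 4 lists. Filled points have an adjusted p under 0.05. Por (2.27) lies beside Dbp (2.25) and Alas1 (2.60) at the right, and Cyp3a11 is the open point of the members.

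By the rule set for likeness, the 5 symbols whose levels followed Por most closely over the 12 mice were Fkbp5 (Pearson r = 0.983), Mfsd2a (0.978), Rhbdd2 (0.975), Tef (0.974) and Hnmt (0.973). For Cyp3a11 the closest were Smpdl3a (0.842), Thoc3 (0.798), Alg6 (0.791), 0610012G03Rik (0.791) and Trappc2l (0.774). These values describe 12 mice in 4 groups that share their times of day, and they were picked as the highest of the 9806 symbols tested.

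The libraries had FPKM sums of 634846 to 759408, and their 10 highest symbols held 23.9% to 28.7% of the sum. Read totals were not given, so no counting error can be attached to a level. Hepatocyte markers were high in every mouse, at 34190 to 48380 FPKM in sum, with Alb alone listed at 0. Of 5 pericentral markers in the table, Cyp2e1 was higher at ZT12 over both treatments (0.53 on the log2 scale). Another 2 were lower (Axin2 at -0.45 and Lgr5 at -0.56), and the median over the 5 was -0.27. At the same threshold, an adjusted p under 0.05 in limma, 29.7% of all symbols passed in either direction. The summed level of the 5 markers, most of it Cyp2e1, was 3944 to 5001 FPKM at ZT0 and 5027 to 7895 FPKM at ZT12. The part of these markers in the difference of Cyp1a2, also a pericentral gene, was not tested.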

How the data were processed

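Liver RNA of 12 mice, 3 in each of 4 groups read from the labels, was analysed. The deposited data are a single gene table in FPKM, made by the authors, and per the labels mm10, TopHat and Cuffnorm were used, while the methods name ELAND, RPKM and uniquely aligned reads. All 12 sample columns of the table were used. Where a symbol was repeated (289 lines), only its highest line on average was used. Levels were analysed as log2(FPKM + 1) for the 9806 symbols with a mean of at least 1 FPKM, with limma 3.58.1 in R 4.3.3 (lmFit, eBayes with trend, two-sided, Benjamini-Hochberg, threshold 0.05). Pairs of groups were fitted on their 6 samples. Time or treatment as a main difference and their interaction were fitted on all 12. Single members also had exact permutation tests over mice, whose p was not adjusted for the number of genes. For the interaction these shuffled treatment within each time, so that their null is no treatment difference at either time. Named genes are the 10 members, genes of the lists that passed a test or else had the 2 smallest p, and the 5 symbols most like Por and Cyp3a11; a few others were chosen after their values were seen. The members and lists were chosen with earlier results of these data known. Sequences were compared with Biopython 1.88 (transcripts of GENCODE vM21, promoters of RefSeq). The calculations were tested on simulated data. Alternatives covered the pseudocount, the minimum level, the trend, scaling, 1 fit for all samples, a replicate block, repeated symbols and each mouse left out. No columns of the authors' own comparisons were in the table. Depth is unknown, since no read counts were used, and the spread of 3 mice sets the precision. The labels call the samples biological replicates.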

Additional observations from a re-analysis of the deposited data

Results flagged for a closer look

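The difference over time of Cyp3a59 was smaller in the Libramed mice than in the vehicle mice. The interaction of time and treatment was -0.28 on the log2 scale (unadjusted p = 0.0471 in limma), which is why it is listed here. The exact permutation p was 0.025, with a null of no treatment difference at either time. The adjusted p in limma was 0.743, and in vehicle and Libramed the levels went from 2.92 to 5.08 FPKM and from 3.37 to 4.58 FPKM. Among all tested symbols 6.63% had an unadjusted p under 0.05 in this comparison. Leaving out single mice moved the value between -0.36 and -0.22.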

How the results depend on the processing

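Over both treatments the same 5 of 6 genes passed under each alternative but the minimum mean of 5 FPKM, which leaves Cyp3a59 out of the test and gave 4. In vehicle the number that passed over time was 2, and it was 1 with the minimum mean of 5 FPKM, 1 with the replicate block and 1 to 2 when single mice were left out, the mice being vehicle replicate 3 at ZT0 and replicates 2 and 3 at ZT12. In Libramed it was 3, and 2 without any 1 mouse, with no minimum level, with the minimum of 5 FPKM or with the replicate block. No gene passed in a treatment comparison or in the interaction under any alternative. The replicate numbers do not pair the mice: residuals of same-numbered mice correlated at -0.279 to 0.341 over 18 pairs of groups and those of other mice at -0.410 to 0.361. With the replicate block Cyp3a59 no longer passed in vehicle (adjusted p = 0.0669) or in Libramed (adjusted p = 0.0956).

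Signs turned only where no gene had passed. Leaving out single mice gave log2 differences of -0.047 to 0.43 for Cyp3a11 over time in vehicle, -0.037 to 0.20 in Libramed (-0.014 with quantile normalization), -0.040 to 0.35 for its treatment difference at ZT0, -0.24 to 0.23 at ZT12, -0.037 to 0.18 over both times and -0.38 to 0.10 for its interaction. Por ranged from -0.12 to 0.45 for treatment at ZT0, from -0.040 to 0.31 at ZT12 and from -0.29 to 0.29 for the interaction. Cyp3a25 ranged from -0.0058 to 0.18 for treatment at ZT12, Cyp3a59 from -0.027 to 0.059 for treatment over both times and Cyp1a2 from -0.14 to 0.30 for the interaction. Beside the counts, 675 values of single genes under alternatives kept their direction and their side of the threshold, and 12 of Cyp3a59 over time within a treatment no longer passed. With all 12 samples in 1 fit Cyp3a25 also passed over time in vehicle (adjusted p = 0.0459). The causes were not tested.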

Other observations

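Hmox1, the heme oxygenase that degrades heme, had the smallest p of the electron transfer and heme genes for the interaction of time and treatment. It was at 8.76 to 11.2 FPKM in vehicle at ZT0 and at 4.61 to 6.14 FPKM at ZT12, and fell by 0.80 on the log2 scale (adjusted p = 0.0141 in limma). In Libramed it was at 4.29 to 7.12 FPKM at ZT0 and at 6.03 to 7.08 FPKM at ZT12, a difference of 0.09. The interaction was 0.89 (unadjusted p = 0.00212, adjusted p = 0.519). Dbp, the circadian output factor, was at 1.85 to 17.9 FPKM in vehicle and at 18.2 to 27.2 FPKM in Libramed at ZT0 (unadjusted p = 0.0350, adjusted p = 0.526), with near-equal means of 62.0 FPKM in both at ZT12.

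Of 8 tested genes that are higher in male liver, 2 passed over time over both treatments in limma. Elovl3 fell by 1.82 on the log2 scale (adjusted p = 0.000226) and Hsd3b5 by 0.78 (adjusted p = 0.0267). Of 2 tested genes that are higher in female liver, 1 passed: Acot3 rose by 2.08 (adjusted p = 0.00505). Among all tested symbols 29.7% passed in either direction. None of these genes differed between Libramed and vehicle at an unadjusted p under 0.05.

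Endothelial markers summed to 5.32 to 8.32 FPKM at ZT0 and 3.38 to 4.94 FPKM at ZT12, cholangiocyte markers to 2.95 to 6.46 FPKM and intestinal markers to 105.3 to 165.3 FPKM, nearly all Fabp2, over the 12 mice. Of the pancreas markers, Cela1 was at 30.2 to 75.5 FPKM, Prss1 and Cpa1 were listed at 0 in all mice and Pnlip reached 0.0525 FPKM at most. Of the fat markers, Cfd was at 0.309 to 42.8 FPKM, and Adipoq and Plin1 reached 0.0492 and 0.0381 FPKM at most. Periportal markers summed to 1152 to 2194 FPKM, and Alas2, the only blood marker with a line of its own, was at 59.4 to 99.6 FPKM.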
